A study of Homo sapiens with 2 samples.

Results

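SR proteins and heterogeneous nuclear ribonucleoproteins (hnRNPs) are the main families of general splicing regulators, and the genes that encode them were examined for contacts of the splicing factor SF3A1 with their RNA. The set held 40 genes by name, 16 for SR and SR-related proteins and 24 for hnRNP proteins, among 19866 nuclear protein-coding genes of the RefSeq annotation. A gene was counted as hit if a listed site lay inside its annotated body, on either strand. Of the 40 genes 20 were hit, and they held 36 of the 2960 listed sites.

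The sites came from 2 libraries of 1 group: anti-SF3A1 crosslinking and immunoprecipitation from C4-2B, an established prostate cancer epithelial line, in a derivative made ready for CRISPR interference. The labels do not say whether a guide RNA was present. Both libraries shared the harvest time (48 h after seeding), the ultraviolet dose (400 mJ/cm2 at 254 nm) and the amount of antibody (2 µg); there was no control group, and input libraries were not analysed here. Each site is a base that was deleted in sequenced tags, a mark that reverse transcriptase can leave at a crosslinked base, and the list is pooled over both libraries at a false discovery rate of 10%.

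Because the list is pooled, no value has a spread between libraries and no test over samples could be made. Depth per library is unknown; tags over all sites summed to 246057. Every listed site had at least 13 tags with the deletion, so a gene without a site is a gene with no position past the authors' limit, not one shown to lack contact. RNA abundance was not measured, and more RNA of a gene cannot be told apart from more contact per molecule. The genome of these cells was not analysed here either, so a deletion carried in their DNA cannot be told apart from one made during reverse transcription. Of 9 luminal prostate marker genes 5 held a site, among them KLK3 with 4 sites, and none of 4 basal marker genes held one. The median lengths of these lists were 5.85 and 5.48 kb, and each had 1 gene over 80 kb. Of all protein-coding genes, 3.08% of those up to 10 kb and 20.4% of those over 80 kb were hit. The absence of a site in 4 basal genes is thus near the background.

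SF3A1 is a subunit of the U2 snRNP, the particle that pairs with the branch site of introns. SR proteins carry RNA recognition motifs and a domain rich in arginine and serine; they bind exons and generally promote their inclusion, while hnRNP proteins bind many intronic and exonic motifs and often oppose it. Many genes of both families limit their own output through poison exons, alternative exons or introns that bring in an early stop codon and send the transcript to decay. Exon coordinates were not used here, so no site below is assigned to an exon, an intron or a poison exon.

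A larger share of SR genes than of hnRNP genes was hit, and both shares stood above that of protein-coding genes as a whole. Of the 16 SR genes 10 held a site (62.5%), and of the 24 hnRNP genes 10 did (41.7%). Among all protein-coding genes the share was 10.1%, and among the 14524 genes no longer than the longest member (60.3 kb) it was 6.85%. Each family held 18 sites, spread over 296 kb of SR gene bodies and 504 kb of hnRNP gene bodies. The density was thus 0.0609 sites per kb in SR genes (exact Poisson 95% interval 0.0361 to 0.0962) and 0.0357 in hnRNP genes (0.0212 to 0.0564), against 0.00428 in the 14524 genes. These intervals cover counting error only, assume independent sites, and overlap between the families. The difference in density between SR and hnRNP genes was not tested. The members were chosen with earlier results of these data known. In each family 5 of the 18 sites lay in 1 gene, SRRM2 or HNRNPU. Among sites with a deleted share under 90% the order turned, at 0.00338 and 0.00595 sites per kb, from 1 and 3 sites.

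The shares of both families also stood above the background within each band of gene length. Of genes up to 10 kb, 3.08% of all protein-coding genes were hit, against 3 of 6 SR genes and 1 of 6 hnRNP genes. Between 10 and 20 kb the background was 6.28%, with 2 of 4 SR and 3 of 8 hnRNP genes hit. Between 20 and 40 kb it was 9.93%, with 4 of 5 SR and 5 of 6 hnRNP genes hit. Between 40 and 80 kb it was 13.2%; SRSF11 was hit, and of 4 hnRNP genes only HNRNPC. SR genes had the larger share in every band except 20 to 40 kb, where it was 80% against 83.3% of hnRNP genes. The bands hold few members each, and no test of these counts was made.

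**Figure D1:**
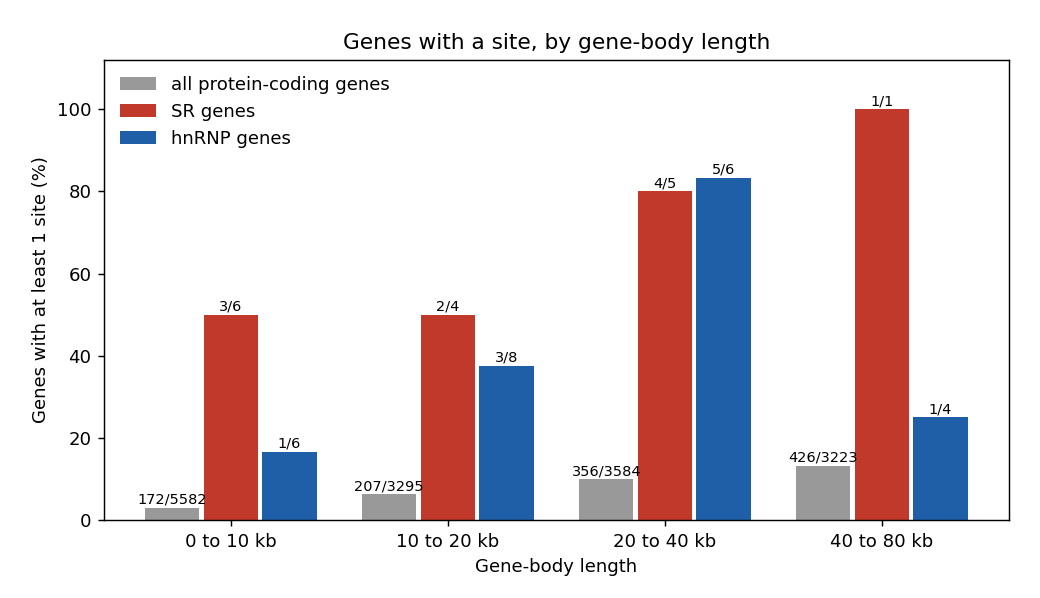
Percent of genes with at least 1 site (vertical axis) in 4 bands of gene-body length (horizontal axis), for all protein-coding genes (grey), SR genes (red) and hnRNP genes (blue), with hit and total genes above each bar. Grey bars rise from 3.08% to 13.2%, and every red and blue bar stands above the grey bar of its band.

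The classical SR proteins, each with RNA recognition motifs and an RS domain, were hit in SRSF2, SRSF3, SRSF4, SRSF5 and SRSF7. SRSF2, which binds exonic enhancers and is known to control the splicing of its own 3′ end, lies on chromosome 17 (76734115 to 76737411) and was the shortest hit member at 3.3 kb. It carried the SR site with the most tags: at position 76735209, 225 of 228 tags had the deletion (98.7%, exact Clopper-Pearson 95% interval 96.2 to 99.7). A second site 187 nt before it in the RNA, at 76735396, had 57 of 68 (83.8%, 72.9 to 91.6), the only SR site under 90%. Both lay on the minus strand, at 61.1% and 66.8% of the way along the gene. With 0.607 sites per kb, SRSF2 ranked 3 of the 416 protein-coding genes with several sites, and only 1 other protein-coding gene as short or shorter held as many.

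SRSF3, the smallest classical SR protein, also had its sites close together. The gene lies on chromosome 6 (36594362 to 36605600) and held sites at 36599992, with the deletion in 19 of 19 tags, and at 36600366, with 69 of 71 (97.2%, 90.2 to 99.7). They were 374 nt apart, at 50.1% and 53.4% of the gene, 5630 and 6004 nt past its listed start. So in both SRSF2 and SRSF3 the sites sat in a short stretch in or just past the middle of the gene. SRSF3 is among the genes known for a poison exon; whether these positions touch it was not analysed here.

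SRSF5, SRSF7 and SRSF4 held 1 site each, with the deletion in every tag. SRSF5 (chromosome 14, 69767142 to 69772005) had 44 of 44 tags at 69770361, 66.2% of the way along. SRSF7 (chromosome 2, 38743599 to 38751494), close in sequence to SRSF3, had 25 of 25 at 38745938, or 70.4%. SRSF4 (chromosome 1, 29147743 to 29181900) had 109 of 109 at 29179348. It differed from the others in place: the site was 2552 nt past the listed start, at 7.47% of a 34.2 kb gene, and also lay within the body of MECR, a mitochondrial enzyme gene on the same strand. That site cannot be given to SRSF4 alone. No site was listed in SRSF1, the prototype of the family, nor in SRSF6, SRSF8, SRSF9 or SRSF10.

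SRSF11, a less typical member with a single RNA recognition motif, is the longest SR gene (chromosome 1, 70205696 to 70253052, 47.4 kb). Its sites stood far apart, 23941 nt. One at 70225205 had 39 of 39 tags and the other at 70249146 had 103 of 103, at 41.2% and 91.8% of the gene. SRSF11 has 2 listed starts, and the site at 70225205 was 3825 nt past the nearest one before it.

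The transformer-2 proteins TRA2A and TRA2B, which bind exonic GAA-rich enhancers, were hit once each at opposite depths. In TRA2A (chromosome 7, 23504780 to 23531981) the site at 23530727 had 66 of 66 tags and lay 1255 nt from the 5′ end, at 4.61% of the gene. In TRA2B (chromosome 3, 185914558 to 185938014) the site at 185922567 had 13 of 13 tags and lay at 65.9%. The TRA2B site has the fewest deleted tags that the list contains, a count shared by 66 sites, so its call is among the least deep.

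Of the larger SR-related proteins, SRRM2, a spliceosomal coactivator and nuclear speckle scaffold, held 5 sites, the most of any SR gene. It spans 18.8 kb of chromosome 16 (2752638 to 2771412), and its sites were scattered from 14.6% to 93.0% of the gene. From the 5′ end the deletion was found in 85 of 86 tags at 2755375, 17 of 17 at 2755893, 101 of 101 at 2759037, 22 of 22 at 2765756 and 51 of 51 at 2770102. All were complete or within 1 tag of it. SON, another speckle scaffold (chromosome 21, 33543038 to 33577481), had 50 of 52 tags at 33561050 (96.2%, 86.8 to 99.5) and 15 of 15 at 33573383, at 52.3% and 88.1%. SRRM1, the partner of SRRM2 in the coactivator complex, had none.

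**Figure D2:**
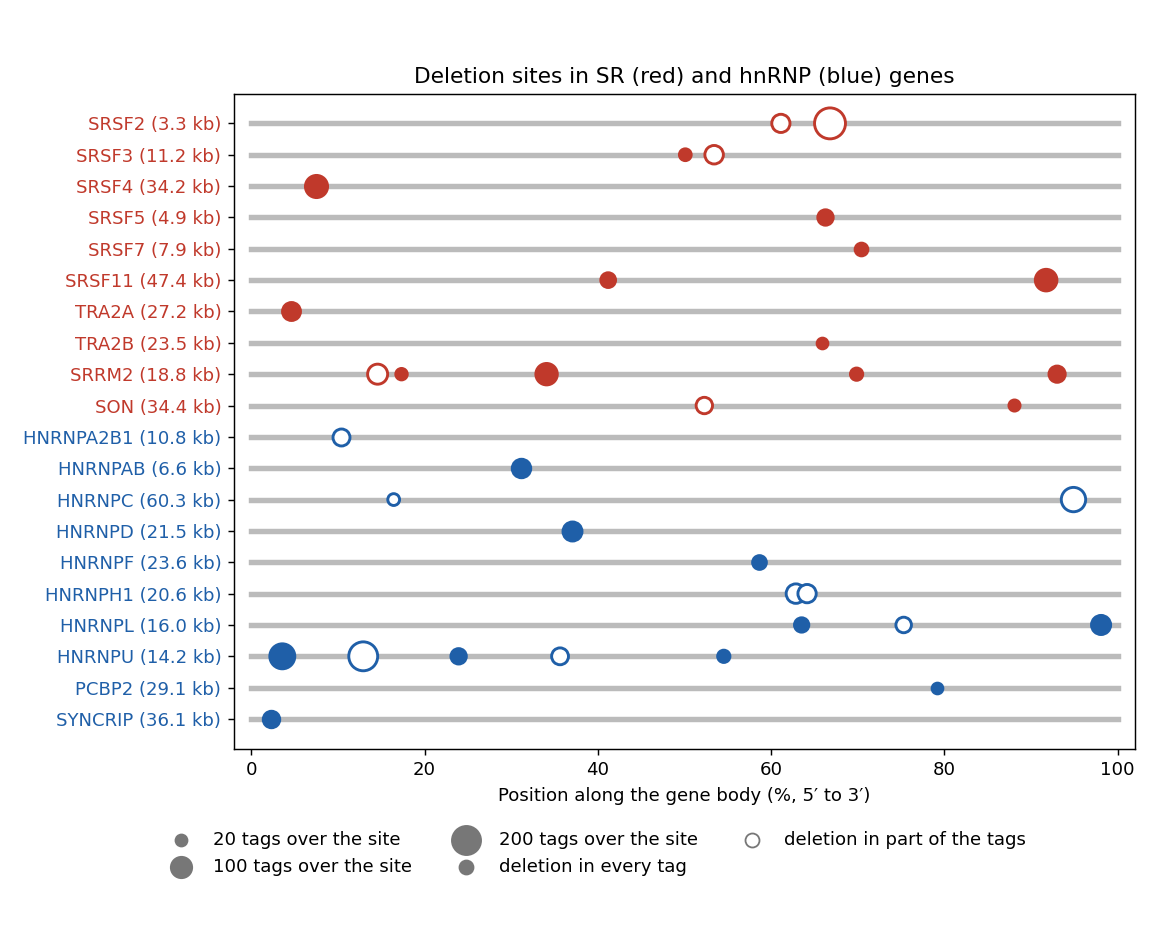
Position of each of the 36 sites along the 20 hit genes (horizontal axis, percent of the gene body from 5′ to 3′); circle area grows with the number of tags over the site, filled circles have the deletion in every tag and open circles in part of them. SRSF2, SRSF3 and HNRNPH1 show pairs of sites side by side, while the 5 sites of HNRNPU lie in the first 54.5% of that gene.

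HNRNPU, also known as scaffold attachment factor A, was the hnRNP gene with the most sites, 5 in 14.2 kb on chromosome 1 (244850297 to 244864543). From the 5′ end they had 143 of 143 tags at 244864034, 192 of 197 at 244862703 (97.5%, 94.2 to 99.2), 44 of 44 at 244861134, 19 of 56 at 244859466 and 22 of 22 at 244856773. The sites ran from 509 nt past the listed start to 54.5% of the gene, at intervals of 1331 to 2693 nt, and none lay in the rest of it. The fourth site stood apart by its share: 33.9% (21.8 to 47.8), the lowest of all 36. HNRNPU and SRRM2 were the only 2 of the 14524 genes of up to 60.3 kb with 5 or more sites.

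HNRNPL, which binds CA-rich RNA and is known to regulate a poison exon of its own, held 3 sites on chromosome 19 (38836370 to 38852347). They had 36 of 36 tags at 38842197, 42 of 45 at 38840315 (93.3%, 81.7 to 98.6) and 77 of 77 at 38836674. In contrast to HNRNPU they lay in the distal part of the gene, at 63.5%, 75.3% and 98.1%. The last was 305 nt from the annotated 3′ end and also within an annotated long noncoding gene.

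HNRNPH1 and HNRNPF, which bind runs of G, were both hit. HNRNPH1 (chromosome 5, 179614178 to 179634784) had 73 of 80 tags at 179621830 (91.3%, 82.8 to 96.4) and 48 of 69 at 179621564 (69.6%, 57.3 to 80.1). These lay 266 nt apart at 62.9% and 64.2% of the gene, both with a partial share and both also inside a long noncoding gene that spans the locus. The HNRNPH1 gene has 4 listed starts, and the sites were 1571 and 1837 nt past the nearest one before them. HNRNPF (chromosome 10, 43385618 to 43409186) had 32 of 32 at 43395363, at 58.7%. It has 2 listed starts, and this site was 1914 nt past the nearest one before it. The close relatives HNRNPH2 and HNRNPH3 had no site in their bodies.

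HNRNPC, a binder of U tracts and the longest member at 60.3 kb, had its sites near both ends. On chromosome 14 (21209147 to 21269442), 18 of 19 tags had the deletion at 21259533 and 130 of 135 at 21212216 (96.3%, 91.6 to 98.8). They were 47317 nt apart, at 16.4% and 94.9% of the gene.

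In the A/B and D groups, whose proteins carry paired RNA recognition motifs, 3 of 7 genes were hit, counting HNRNPDL. HNRNPA2B1 (chromosome 7, 26189927 to 26200746) had 37 of 57 tags at 26199623, a share of 64.9% (51.1 to 77.1), 1123 nt past its start. HNRNPAB (chromosome 5, 178204533 to 178211163) had 71 of 71 at 178206593 and HNRNPD, an AU-rich element binder (chromosome 4, 82352498 to 82373991), had 76 of 76 at 82366038. These were at 31.1% and 37.0% of their genes. HNRNPA0, HNRNPA1, HNRNPA3 and HNRNPDL had none.

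Among the remaining hnRNP proteins, PCBP2, a KH-domain protein that binds C-rich RNA, and SYNCRIP, also called hnRNP Q, held 1 site each. PCBP2 (chromosome 12, 53452102 to 53481162) had 13 of 13 tags at 53475094, the list's lowest count. SYNCRIP (chromosome 6, 85607784 to 85643870) had 53 of 53 at 85643053, only 817 nt past its start, at 2.27% of the gene. Its paralogue HNRNPR had none, nor did PCBP1, which is 1.73 kb long, or PTBP1, known for repressing its own exon. HNRNPK, HNRNPLL, HNRNPM, HNRNPUL1 and HNRNPUL2 also had none.

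**Figure D3:**
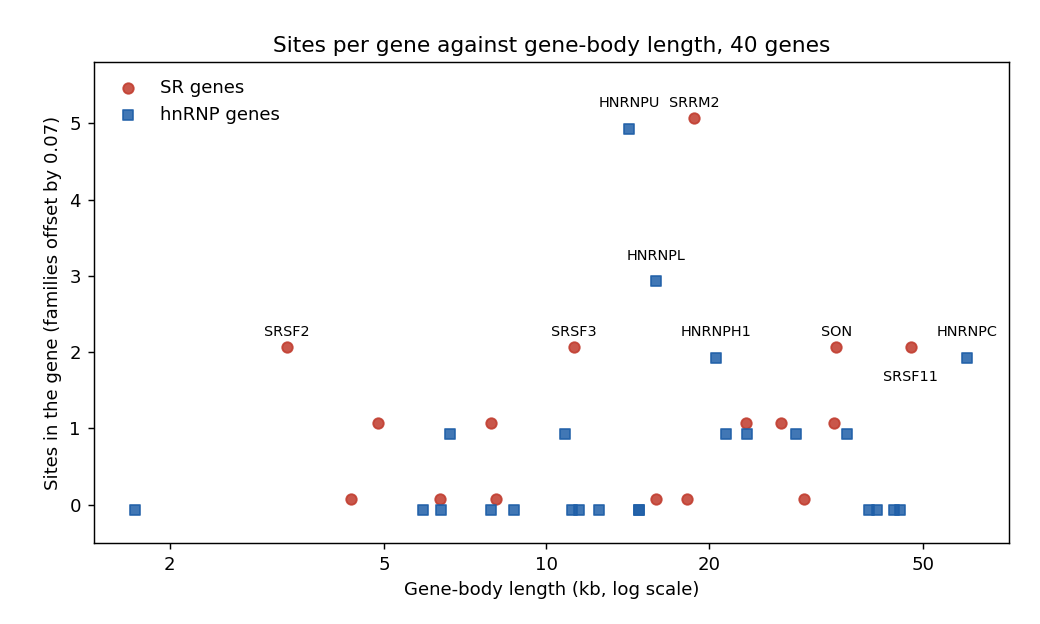
Number of sites (vertical axis) against gene-body length in kb (horizontal log axis) for the 16 SR genes (red circles) and 24 hnRNP genes (blue squares), with labels on the 9 genes with at least 2 sites. HNRNPU and SRRM2 stand at 5 sites while the members longer than SRRM2 hold 0 to 2.

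Several genes of each family held more than 1 site. By density, HNRNPU ranked 8, SRRM2 14, HNRNPL 26 and SRSF3 29 of the 416 protein-coding genes with several sites. At least 2 sites were found in 5 SR genes and 4 hnRNP genes, against 1.07% of the 14524 genes of up to 60.3 kb. The median distance between neighbours was 3745 nt over 8 pairs of sites in SR genes and 1775 nt over 8 pairs in hnRNP genes. The SR pairs came from 5 genes, most often SRRM2, and the hnRNP pairs from 4 genes, most often HNRNPU. Each median thus rests largely on 1 gene. In the genes of up to 60.3 kb, members included, the median was 4607 nt over 192 pairs from 152 genes. Pairs within 500 nt numbered 2 of 8 in SR genes (SRSF2, SRSF3), 1 of 8 in hnRNP genes (HNRNPH1) and 16 of 192 in the genes of up to 60.3 kb.

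Sites lay on the sense strand wherever this could be judged. The strand was listed for 37 of the 40 genes, and all 33 sites in these, 15 in SR and 18 in hnRNP genes, were on the strand of the gene (95% Clopper-Pearson interval for the share 89.4 to 100). This interval treats the sites as independent, although sites in the same gene share its strand, so it is too narrow. Over all protein-coding genes with a listed strand, 2082 of 2205 site and gene pairs matched (94.4%). SRSF2 and TRA2A, with 3 sites, are not in this count. A site in an overlapping gene of the same strand would also count as sense, and 4 of the 36 sites, in SRSF4, HNRNPH1 and HNRNPL, lay in another gene too.

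Positions along the gene overlapped between the families. They were counted over the whole gene body. A site far along it can thus lie near an internal listed start, as in HNRNPF and HNRNPH1. The median was 57.3% in SR genes (interquartile range 35.9 to 69.1) and 45.8% in hnRNP genes (18.3 to 64.0), with 55.0% over genes of up to 60.3 kb. With the gene cut into 3 equal parts, sites in the first, middle and last part numbered 4, 8 and 6 in SR genes and 7, 7 and 4 in hnRNP genes. The order of the medians rested on HNRNPU: without that gene the hnRNP median was 62.9%, above the SR median. Without SRRM2 the SR median was 61.1%. None of the 36 sites fell within 50 nt after a listed transcript start, but no start was listed for SRSF2 and TRA2A. The share over all listed sites was not computed.

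Deleted shares were high in both families, and the lowest ones lay in hnRNP genes. The deletion was complete at 13 of 18 SR sites and 10 of 18 hnRNP sites, against 77.3% of sites in all protein-coding genes. Shares under 90% were found at 1 SR site (SRSF2) and 3 hnRNP sites (HNRNPU, HNRNPH1, HNRNPA2B1), against 5.83%. The lowest SR share was 83.8% and the lowest hnRNP share 33.9%. Coverage overlapped between the families, with a median of 51.5 tags over SR sites (13 to 228) and 56.5 over hnRNP sites (13 to 197), with 52 over all sites in protein-coding genes. No test of the difference in shares was made, as tags of 1 pool are not replicates.

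**Figure D4:**
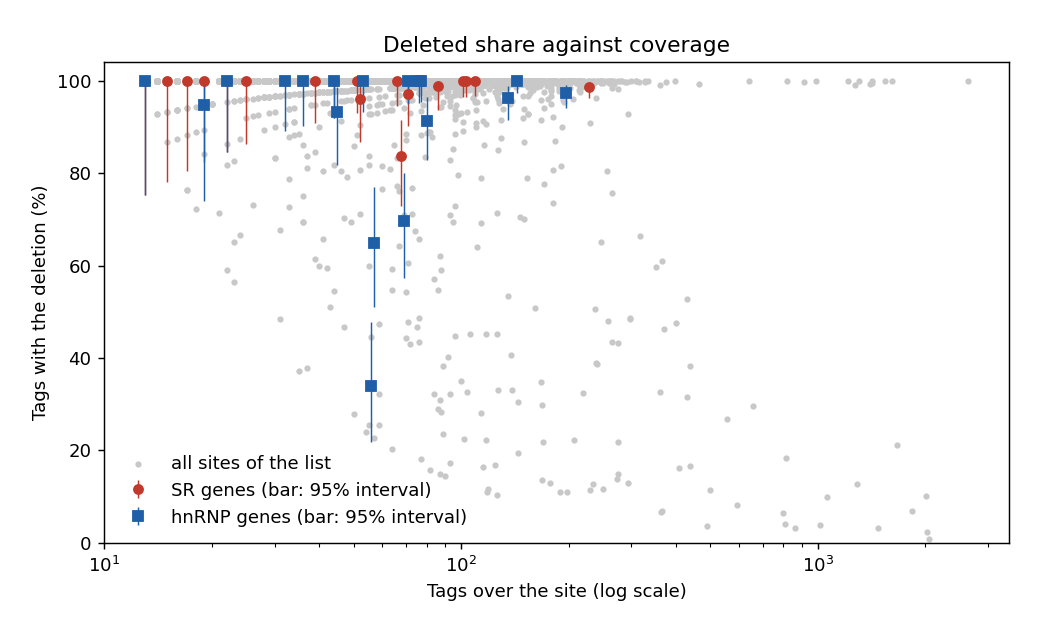
Percent of tags with the deletion (vertical axis) against tags over the site (horizontal log axis) for all 2960 sites (grey), SR sites (red circles) and hnRNP sites (blue squares), with exact 95% intervals for counting error. Most points lie at or near 100%; the 3 lowest coloured points are hnRNP sites at 69.6%, 64.9% and 33.9%.

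Within 1 kb outside the member genes 1 site was listed, and it lay on the strand opposite to the member. The count in such flanks of all protein-coding genes was not computed, so this count cannot be read as few or many. It stood on chromosome 10 at 68331530, 163 nt before the start of HNRNPH3, which is on the plus strand, while the site is on the minus strand inside the overlapping gene PBLD, 1399 nt from the 5′ end of PBLD. All 22 of its tags had the deletion (84.6 to 100). It was the only site in or within 1 kb of a member for which RefSeq promoter sequence (GRCh38.p14) was at hand, so the bases around it are shown. The listed base ends a run of T, and which base of that run was deleted cannot be told apart. The sequence is chr10:68331516-68331544, minus strand, 5′ to 3′, with the listed base in capitals:
HNRNPH3 upstream site: cactggggccgattTcggctctcgggctg

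Pseudogenes of members were many and held no site. RefSeq lists 17 pseudogenes named after SR members and 133 named after hnRNP members, and none of these had a listed site. The share of all annotated pseudogenes with a site was not computed, so this count cannot be read as particular to them. HNRNPA1 alone had 75 and HNRNPA3 had 17, and neither parent gene was hit. How reads that match several copies were treated is not stated in the labels, and their part in these counts was not tested. Among SR genes 4 of the 10 hit and 5 of the 6 others had a pseudogene, and among hnRNP genes 9 of the 10 hit and 8 of the 14 others did. Within each family the hit genes were longer, with a median of 21.1 kb against 12.0 kb for those not hit in both SR and hnRNP genes. The same held over all protein-coding genes of up to 60.3 kb, at 26.5 against 13.7 kb.

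Genes that act on SR proteins or resemble the members were hit at 30.8% to 38.1%. The lists of these genes were chosen with earlier results of these data known. Of 13 genes for SR protein kinases, the PP1 phosphatase and the SR import factor, 4 were hit. CLK1, a kinase that releases SR proteins from speckles and whose own transcript is known for regulated intron retention, held 2 sites in 11.7 kb, with a lowest share of 30.6%. CLK2, DYRK1A and PPP1CB had 1 each, the DYRK1A site with 267 of 269 tags. Of 21 other RS-domain proteins 8 were hit, once each, among them RSRC2 (230 of 239 tags), SREK1 (146 of 146), RNPS1 and CCNL2. NKTR and RSRC1 were hit too. Of 26 other hnRNP-like proteins 8 were hit, with 2 sites each in CELF1 and FUBP3 and 1 each in ELAVL1, MATR3 and MBNL1 among others. These lists have longer genes than the members, with medians of 34.5, 39.3 and 47.0 kb against 15.4 kb. The background is 9.93% between 20 and 40 kb, 13.2% between 40 and 80 kb and 20.4% above 80 kb, where 1 of 4 listed genes of the first list, 3 of 6 of the second and 3 of 9 of the third were hit.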

How the data were processed

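Per the submitters' processing notes, the tools were UMI-tools, cutadapt, SAMtools and BWA 0.7.17 and the build was hg38; their roles and settings are not stated in the labels. The authors deposited 1 list of deletion sites, pooled over 2 libraries; by its name it holds unique tags and positions at an FDR of 10%. Its values are raw counts of tags with the deletion, as deposited, and the total of tags at a position was read from its name. Nothing was normalized.

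Sites were placed in gene bodies of the RefSeq table of GRCh38.p14 (58956 genes on the nuclear chromosomes), 1-based. Strand and starts came from RefSeq's promoter table, which matched 37 of 40 members; for the other 3 the site's strand was used. Exons were not used here. Shares of tags have exact Clopper-Pearson 95% intervals, which assume independent molecules. Densities have exact Poisson 95% intervals and the share of sense sites a Clopper-Pearson one, and these assume independent sites. Assignment was tested on simulated data and recovered planted sites in 40 of 40 genes. Lists and members were chosen with earlier results of these data known. Every hit member is named, with up to 6 hit genes per further list; some genes that this rule picks are not reported here. Further lists were matched by symbol or synonym. Python 3.11.15, numpy 2.4.6, pandas 2.3.3, scipy 1.17.1 and matplotlib 3.10.9 were used.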

Additional observations from a re-analysis of the deposited data

How the results depend on the processing

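With only sites of more deleted tags than the list's median, 6 of the 16 SR genes and 7 of the 24 hnRNP genes were hit. The densities were 0.0304 sites per kb in SR genes and 0.0159 in hnRNP genes. With only sites of a deleted share under 0.9, 1 SR gene was hit at 0.00338 sites per kb with a median share of 83.8%, and 3 hnRNP genes at 0.00595 sites per kb with a median share of 64.9%. Both settings keep fewer sites by construction. Merging within 50 nt altered no site, as the closest neighbours in a member were 187 nt apart. Using the gene's strand alone removed none either, since every site that could be judged was sense. Neither setting could therefore change a value. Leaving out sites in other genes and widening bodies by 1 kb left counts of hit genes within 1.5 times. Densities, median shares and median positions stayed within their intervals. Leaving out SRRM2 and HNRNPU, a setting chosen after seeing the data, also kept the values within these limits. The hnRNP median position still moved from 45.8% to 62.9%, inside a wide interval (16.4 to 64.2). Narrower families (without SRRM1, SRRM2, SON, PTBP1, PCBP1, PCBP2 and SYNCRIP) kept counts and densities within the same limits. With 1 site per gene shares and positions stayed within them. Only these values were computed for the narrower families and for 1 site per gene. No paired analysis was possible because the list pools both libraries; for the same reason neither could be left out.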

Other observations

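RefSeq lists noncoding transcripts, alongside coding ones, for 9 of the 16 SR genes (56.3%) and for 3 of the 24 hnRNP genes (12.5%), against 15.8% of all protein-coding genes and 22.2% of those with a site. Within the SR family such transcripts were listed for 4 of the 10 hit genes (SRSF2, SRSF3, SRSF11 and SON) and for 5 of the 6 genes without a site. No hit hnRNP gene had one, and the 3 that did, HNRNPA1, HNRNPA3 and HNRNPDL, held no site. The table does not say which of these transcripts contain a poison exon.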
